A study of Mus musculus with 8 samples.

Results

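The genes described here are 30 genes of the intestinal epithelium that were measured in samples labelled as macrophages. They were chosen by name, after earlier results of these data had shown such genes at unequal levels between single arrays and between the genotypes. Every probe whose transcript belongs to one of them was taken, which gave 34 probes among 39429 gene probes, and 30 genes among the 20882 that could be named. The measured levels therefore entered the choice, and the levels of the 30 genes and their difference between genotypes are given as a description.

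The samples were macrophages of male mice treated with lipopolysaccharide (LPS), an endotoxin of bacteria to which macrophages respond. They comprised 4 wild-type samples (wt in the labels, WT 1 to WT 4 here) and 4 samples of EP2ko mice (EP2KO 1 to EP2KO 4), which lack the prostaglandin E2 receptor EP2, the product of Ptger2. All 8 samples came from LPS-treated animals, so no untreated background was measured. The labels give neither the dose and time of LPS, the age of the mice, the site the macrophages were taken from, the kind of deletion, nor whether replicates were separate mice. RNA of each sample was hybridised to 1 array with 1 colour, and a level below is the log2 of the processed signal relative to that array's 75th percentile.

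The epithelium of the small intestine is renewed from crypts, and most of its cells are enterocytes, which digest and absorb food across a brush border. Enterocytes take up fatty acids, rebuild triglycerides and export them as chylomicrons, while goblet cells secrete mucus and other cells release antimicrobial lectins and peptide hormones. The transcription factors Cdx1, Cdx2 and Hnf4a drive much of this programme, which macrophages are not known for, although several of the genes are active in liver, kidney or other tissues as well.

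Between 25555 (WT 1) and 32147 (WT 3) probes were well above background, the signal at the 75th percentile was 979 on WT 2 (lowest) and 1506 on WT 3 (highest), and 0 spots were saturated. WT 1, WT 2, EP2KO 1 and EP2KO 2 lay on slide 1 and the other 4 arrays on slide 2, each scanned in 1 session. On either slide the WT arrays were at positions 1 and 2 and the EP2KO arrays at 3 and 4, and genotype therefore cannot be told apart from position. All 11 measured macrophage identity genes, among them Adgre1, Csf1r and Lyz2, were well above background on all 8 arrays. Detection alone does not identify the cells, since 71.1% to 84.5% of all named genes were well above background per array. The median centred level of the macrophage identity list stayed between -0.42 (WT 4) and 0.33 (WT 2). Within that list Mrc1, a mannose receptor, ranged over 2.13 log2 units and Aif1, a calcium-binding protein of macrophages, over 1.91. Ptger2 measured -0.03, 0.18, -0.15 and 0.01 on WT 1 to WT 4 and -1.48, -1.79, -1.63 and -2.15 on EP2KO 1 to EP2KO 4. The groups did not overlap, and the difference of -1.77 ± 0.17 (SE, n = 4 per genotype) had a limma adjusted p of 0.0626, or 0.0319 in a fit blocked by slide and 0.216 in one blocked by replicate number. The labels do not say whether the deletion covers its probe, so this checks the genotype labels only if it does.

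The gut epithelial genes were highest on a single array. WT 1 gave the highest level for 29 of the 30 genes, where 8.98% of the 18328 named genes above background on any array had their highest level there (13.6% of those that ranged over at least 2 log2 units). For 24 genes WT 1 stood more than 1 log2 unit above the next array. WT 4 came second for 23 genes, WT 2 for 4. Over all 30 genes, each centred on its own mean over the 8 arrays, the median was 3.98 on WT 1, 0.31 on WT 2, -0.32 on WT 3 and 1.89 on WT 4. On EP2KO 1 to EP2KO 4 it was -1.38, -1.47, -0.96 and -1.18. The WT arrays thus spread over more than 4 log2 units while the EP2KO arrays lay between -1.47 and -0.96. That profile ranged over 5.45 log2 units, and over 3.56 without WT 1. A single gene ranged over 6.12 at the median, against 1.21 for all named genes above background on any array. Without WT 1, WT 4 was the highest array for 23 of the 30 genes (9.34% of named genes). Under the normexp background correction as planned the profile of WT 4 (1.93) exceeded that of WT 1 (1.72). On WT 4, 9 spots had a local background above their foreground, and so did 1 spot on WT 3. With the background of all these spots replaced by the median of their array, the profile was 1.96 on WT 1 and 0.35 on WT 4. That setting was chosen after seeing the data.

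**Figure D1:**
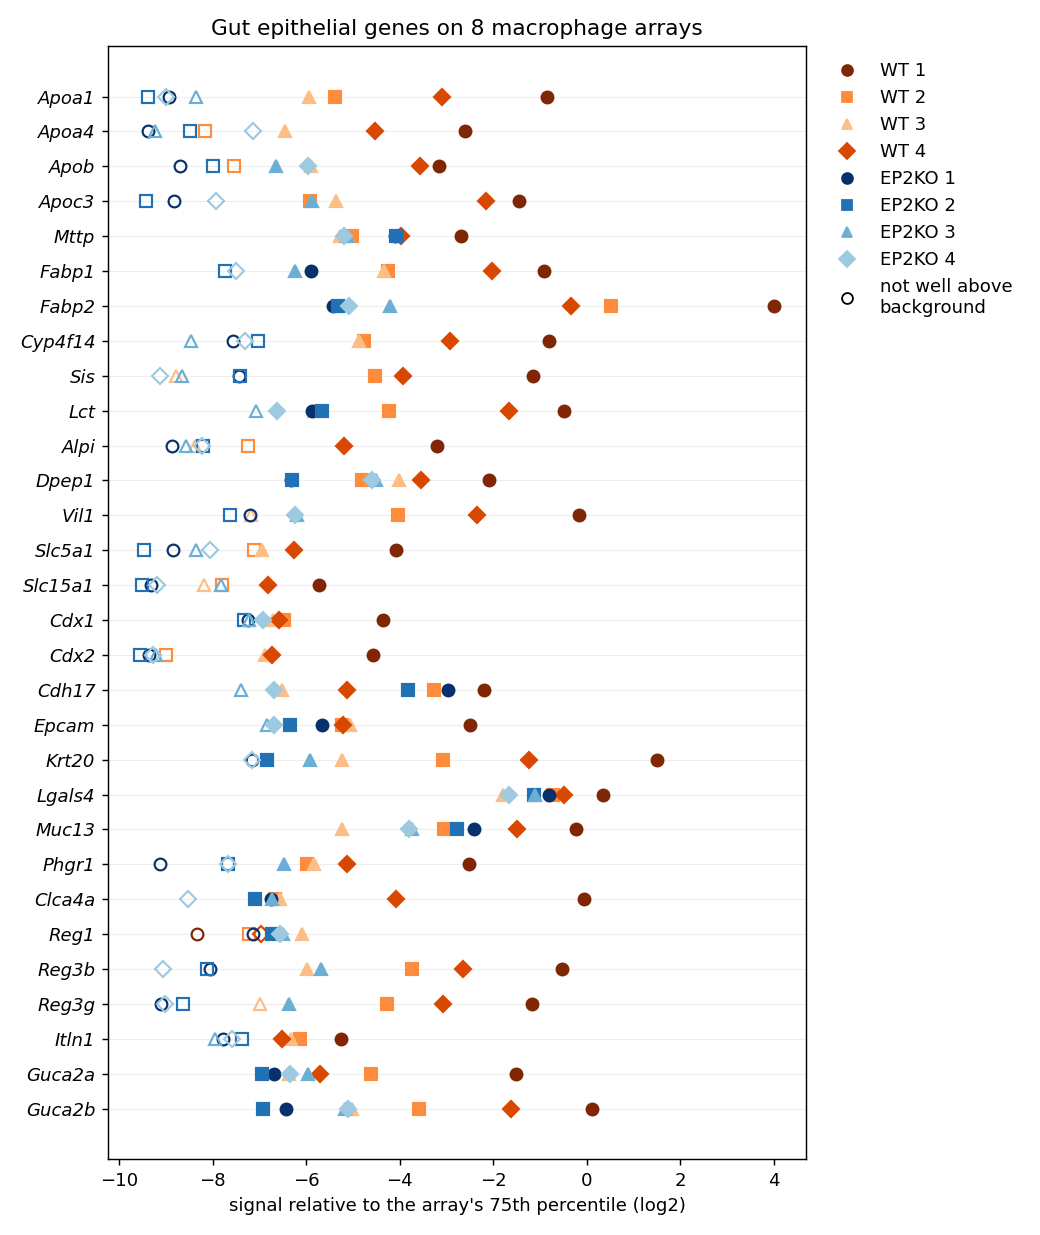
Level of each of the 30 genes on each array, as log2 signal relative to that array's 75th percentile (horizontal axis), with 1 row per gene. WT arrays are in browns and oranges, EP2KO arrays in blues, and an open symbol marks a probe not well above background on that array. WT 1 is the rightmost symbol for 29 of the 30 genes, and many EP2KO symbols are open.

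Detection, too, was most frequent on WT 1 and WT 4. Of the 30 genes, 29 were well above background on WT 1, 24 on WT 2, 25 on WT 3 and 29 on WT 4, against 12, 13, 17 and 14 on EP2KO 1 to EP2KO 4. By the looser flag for a positive and significant signal the counts were 30, 29, 30 and 30 on the WT arrays and 24, 25, 28 and 24 on the EP2KO arrays. Over all named genes the share was 71.2%, 71.5%, 84.5% and 75.8% on the WT arrays and 73.3%, 75.4%, 72.2% and 71.1% on the EP2KO arrays. WT 3 thus had the largest number of detected genes of any kind, and its count of gut genes stands against that background. Across arrays, 9 of the 30 were not well above background on any EP2KO array (Apoa1, Apoa4, Cyp4f14, Sis, Alpi, Slc5a1, Slc15a1, Cdx2 and Itln1). At the other end, 7 were well above background on all 8 arrays (Mttp, Fabp2, Dpep1, Lgals4, Muc13, Guca2a and Guca2b). The number of arrays limits the precision of every level, and in RNA of a whole cell preparation fewer cells of a type and less RNA per cell cannot be told apart.

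**Figure D2:**
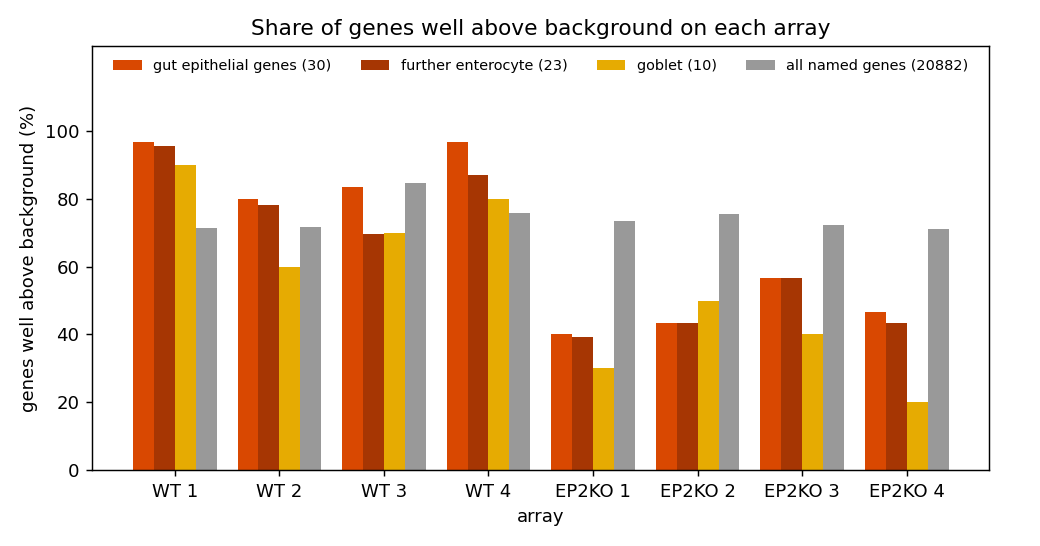
Share of genes well above background on each array, in percent, for the 30 gut epithelial genes, 23 further enterocyte genes, 10 goblet cell genes and all 20882 named genes. The gut epithelial share is 96.7% on WT 1 and WT 4 and between 40.0% and 56.7% on the EP2KO arrays, while the grey bars of all named genes stay between 71.1% and 84.5%.

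Genes of lipid uptake and lipoprotein assembly showed the widest spread of the 6 roles, with all 8 highest on WT 1 and a median centred level from 4.40 (WT 1) to -2.45 (EP2KO 1). Fabp2, the intestinal fatty acid binding protein, measured 4.01, 0.51, -5.18 and -0.34 on WT 1 to WT 4 and -5.41, -5.31, -4.20 and -5.09 on EP2KO 1 to EP2KO 4. Only WT 3 lay among the EP2KO values, and the signal on WT 1 was 517-fold that of the EP2KO mean. Apoa1, an apolipoprotein of HDL and chylomicrons, measured -0.84, -5.38, -5.94 and -3.10 on the WT arrays and -8.93, -9.38, -8.35 and -8.99 on the EP2KO arrays. The groups did not overlap, no EP2KO array was well above background, and the mean of the WT arrays was at least 9.68-fold higher. A bound of this kind sets the mean of the bright group against, on each dim array, the higher of the probe's own level and the lowest level among probes well above background. The Apoa1 probe is spotted 10 times on each array, and the SD of its spots within an array was 0.04 log2 units on WT 1 and on WT 4, 0.17 on WT 2, 0.13 on WT 3 and 0.16 to 0.68 on the EP2KO arrays.

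Fabp1, the fatty acid binding protein shared with liver, measured -0.91, -4.26, -4.34 and -2.02 against -5.90, -7.73, -6.23 and -7.50. Cyp4f14, a cytochrome P450 that hydroxylates fatty acids and leukotrienes, measured -0.80, -4.76, -4.86 and -2.91 on the WT arrays and between -8.46 and -7.02 on the EP2KO arrays, none of them well above background. For both genes all WT levels lay above all EP2KO levels. Apoc3, an inhibitor of lipoprotein lipase, measured -1.46, -5.92, -5.36 and -2.16 on the WT arrays and -8.83, -9.43, -5.88 and -7.94 on the EP2KO arrays, of which EP2KO 3 alone was above background and overlapped with WT 2. Apoa4, an apolipoprotein of chylomicrons, was well above background on WT 1 (-2.61), WT 3 (-6.45) and WT 4 (-4.52) and on no other array. Apob, the structural protein of chylomicrons, had 2 probes, of which the brighter measured -3.15, -7.55, -5.90 and -3.57 against -8.70, -7.99, -6.65 and -5.95, so that the groups overlapped. The probes disagreed: the other, well above background on WT 1, WT 2 and WT 4, measured -2.34, -6.54, -8.60 and -4.79 on the WT arrays and -9.60 to -9.26 on the EP2KO arrays. Mttp, which loads lipid onto Apob, stood apart from the others. It was above background on every array at -2.69, -5.01, -5.27 and -3.98 against -4.10, -4.09, -5.12 and -5.20, so that WT 4 lay just above the EP2KO arrays, WT 2 among them and WT 3 below them.

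Apoa1, Apoa4 and Apoc3 lie next to each other on chromosome 9, and Fabp2, Sis, Mttp and Clca4a are on chromosome 3. Fabp2 and Apoa4 are shown by their promoters, because Fabp2 had the widest range of the 30 genes and Apoa4 belongs to that cluster. The sequences are those of RefSeq on GRCm38.p6, from 250 bases before to 50 bases after the start of the gene, and capitals mark matches to the letters TTTATNG of the CDX motif or CAAAGTNCA of the HNF4 motif, searched on both strands. A match describes the letters and is not a shown binding site.
Fabp2, chr3:122894822-122895121, plus strand: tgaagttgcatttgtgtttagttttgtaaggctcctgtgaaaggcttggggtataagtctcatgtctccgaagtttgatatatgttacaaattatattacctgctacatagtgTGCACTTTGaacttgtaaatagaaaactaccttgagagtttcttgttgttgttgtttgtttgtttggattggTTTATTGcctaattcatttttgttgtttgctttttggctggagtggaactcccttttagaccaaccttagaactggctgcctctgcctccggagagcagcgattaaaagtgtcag
Apoa4, chr9:46240594-46240893, plus strand: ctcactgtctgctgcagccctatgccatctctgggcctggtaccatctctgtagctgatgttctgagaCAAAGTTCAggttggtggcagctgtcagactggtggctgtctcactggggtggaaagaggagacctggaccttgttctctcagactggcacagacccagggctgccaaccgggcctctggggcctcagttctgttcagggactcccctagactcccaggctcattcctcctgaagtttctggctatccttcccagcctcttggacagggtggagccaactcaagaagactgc
Sis, chr3:72967814-72968113, minus strand: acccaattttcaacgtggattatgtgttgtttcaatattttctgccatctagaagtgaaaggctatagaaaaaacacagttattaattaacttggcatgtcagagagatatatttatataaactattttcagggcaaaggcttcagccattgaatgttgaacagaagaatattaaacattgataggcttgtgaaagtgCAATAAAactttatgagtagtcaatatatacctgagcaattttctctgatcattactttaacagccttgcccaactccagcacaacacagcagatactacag
The Sis promoter is shown with them as that of a brush border enzyme, and it holds 1 CDX match, 52 bases before the start. Fabp2 holds 1 CDX match 65 bases before the start and 1 HNF4 match 137 bases before it, and Apoa4 1 HNF4 match at 182 bases. Windows were given for 26 of the 30 genes, and 10 of these 26 held a CDX match and 4 an HNF4 match. Over all 32851 windows the shares were 10.9% and 1.41%.

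All 7 brush border genes were highest on WT 1, and their median centred level was 4.03, 0.28, -1.14 and 2.06 on WT 1 to WT 4 and between -1.47 and -1.06 on the EP2KO arrays. Sis, the sucrase-isomaltase that splits dietary sugars, measured -1.14, -4.52, -8.78 and -3.92 on the WT arrays and -7.44, -7.40, -8.66 and -9.14 on the EP2KO arrays. It was well above background on WT 1, WT 2 and WT 4 only, and the WT mean was at least 5.65-fold higher. Lct, the lactase, measured -0.49, -4.23, -5.83 and -1.67 against -5.88, -5.66, -7.06 and -6.62, and WT 3 lay among the EP2KO arrays. Vil1, the actin bundler of microvilli, had the same pattern at -0.17, -4.04, -7.18 and -2.35 against -7.20, -7.64, -6.19 and -6.24, with WT 3 not well above background. On WT 3, then, Sis, Lct and Vil1 were at the levels of the EP2KO arrays although that array had the most detected genes.

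Alpi, the intestinal alkaline phosphatase, and Slc15a1, the peptide transporter PEPT1, were well above background on WT 1 and WT 4 only, at -3.20 and -5.18 for Alpi and -5.73 and -6.81 for Slc15a1. Slc5a1, the sodium-glucose cotransporter SGLT1, was above background on WT 1 (-4.08), WT 3 (-6.94) and WT 4 (-6.25). Dpep1, a membrane dipeptidase also made in kidney, was detected on all 8 arrays at -2.09, -4.80, -4.01 and -3.55 against -6.32, -6.30, -4.51 and -4.59. Its EP2KO levels differed by slide, and EP2KO 3 and EP2KO 4 overlapped with WT 2.

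Both caudal-type factors that specify intestinal identity were dim. Cdx2 measured -4.56 on WT 1, -6.89 on WT 3 and -6.72 on WT 4, and was not well above background on WT 2 (-9.00) or on any EP2KO array (-9.56 to -9.21). Cdx1 measured -4.36 on WT 1, with the other WT arrays between -6.71 and -6.47 and the EP2KO arrays between -7.32 and -6.92. WT 1 stood 2.16 log2 units above the next array for Cdx2 and 2.10 for Cdx1. The Cdx1 groups did not overlap, while WT 2 and the EP2KO arrays have no order for Cdx2, since none was well above background.

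Genes of adhesion, the cell surface and structure were mixed. Krt20, a keratin of differentiated gut cells, measured 1.50, -3.07, -5.24 and -1.24 on WT 1 to WT 4 and -7.17, -6.84, -5.92 and -7.15 on EP2KO 1 to EP2KO 4. The groups did not overlap, and of the EP2KO arrays only EP2KO 2 and EP2KO 3 were well above background. Clca4a, of the family of calcium-activated chloride channel regulators, measured -0.06, -6.66, -6.57 and -4.07 against -6.74, -7.08, -6.74 and -8.53, so WT 2 and WT 3 stood only just above the EP2KO arrays. Among the genes compared from outside the gut epithelial genes, its paralog Clca4b was most like the median profile of the gut epithelial genes. The likeness of Clca4b to Clca4a itself was not tested, and neither was cross-hybridisation between them. Phgr1, a small protein rich in proline, histidine and glycine, measured -2.53, -5.97, -5.84 and -5.13 against -9.12, -7.68, -6.48 and -7.67. Epcam, an adhesion molecule of simple epithelia, measured -2.50 on WT 1, between -5.24 and -5.06 on the other WT arrays and -5.66, -6.35, -6.83 and -6.69 on the EP2KO arrays. For both genes, too, the groups did not overlap.

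A few of these genes had another pattern. Cdh17, the liver-intestine cadherin, measured -2.20, -3.26, -6.52 and -5.12 against -2.96, -3.82, -7.40 and -6.68. Its 4 arrays of slide 1 all lay above its 4 arrays of slide 2, and the genotypes overlapped, although each EP2KO array was lower than the WT array of equal number. Lgals4, a galectin of gut epithelium, was bright on every array at 0.35, -0.73, -1.78 and -0.47 against -0.80, -1.14, -1.10 and -1.65, and its 3 probes kept the same order of the WT arrays. Muc13, a transmembrane mucin, was also detected everywhere at -0.23, -3.06, -5.23 and -1.50 against -2.42, -2.77, -3.74 and -3.80. WT 3 lay below all EP2KO arrays for both, and WT 2 lay among them for Muc13 and just above them for Lgals4 on its brightest probe. Of the other Lgals4 probes, WT 2 lay just below EP2KO 1 on 1 (-0.906 against -0.901) and above all EP2KO arrays on the remaining probe. Without WT 1 the difference between genotypes changed sign for Mttp (0.13) and Muc13 (0.08).

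Among the secreted lectins, Reg3b and Reg3g, antibacterial lectins of the gut, had nearly the same profile. Reg3b measured -0.52, -3.73, -5.98 and -2.65 against -8.07, -8.12, -5.69 and -9.06, and Reg3g -1.16, -4.27, -6.99 and -3.08 against -9.11, -8.62, -6.37 and -9.02. EP2KO 3 alone of the EP2KO arrays was well above background for either gene, and it stood above WT 3. They are paralogs, neighbours on chromosome 6 together with Reg1, and their probes may share signal. Reg1, named for regenerating pancreatic islets, was the exception among the 30 genes: it was highest on WT 3 (-6.09), not well above background on WT 1 (-8.32), WT 2 or WT 4, and detected on EP2KO 2, EP2KO 3 and EP2KO 4 (-6.72 to -6.49). Itln1, an intelectin of goblet and Paneth cells, measured -5.26, -6.14, -6.32 and -6.53 against -7.77, -7.38, -7.96 and -7.60 on its brighter probe. No EP2KO array was well above background, and the WT mean was at least 2.04-fold higher. The other Itln1 probe was well above background on 1 array only and read highest on WT 3 (-6.78, with -7.09 on WT 1).

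Guanylin and uroguanylin, the peptides encoded by the neighbouring genes Guca2a and Guca2b on chromosome 4, regulate salt and water secretion through guanylate cyclase C. Guca2b measured 0.11, -3.59, -5.03 and -1.63 against -6.43, -6.92, -5.18 and -5.11, with no overlap between the genotypes although WT 3 stood only just above EP2KO 4. Guca2a measured -1.52, -4.62, -6.37 and -5.69 against -6.69, -6.95, -5.96 and -6.34, and WT 3 lay among the EP2KO arrays. WT 4 was well above WT 2 for Guca2b but below it for Guca2a.

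Across the 30 genes, all 4 WT levels lay above all 4 EP2KO levels for 12, against 1.47% of named genes above background on any array. For Slc5a1 and Cdx2, of these 12, WT 2 was itself not well above background. Both WT arrays lay above both EP2KO arrays for 26 genes on slide 1 and 18 on slide 2, against 33.2% and 24.8% of named genes. The count of 12 was also 12 without WT 1 (2.29% of named genes) and became 22 without WT 3 (2.24%). The mean level was lower in EP2KO for 29 of the 30 genes, and the median difference between means was -2.73, or -3.55 on slide 1 and -1.62 on slide 2, where the median over all named genes above background on any array was -0.05. No p-value is attached to this difference, because the genes were chosen on these levels. Of the 30, 20 passed the filter for the fit across all features (well above background on all arrays of 1 genotype), 13 of them only through the WT arrays. In that fit limma called 0 of the 20 at an adjusted p under 0.05 (13 at an unadjusted p under 0.05), against 0.00964% of 20740 features in either direction and 1.49% lower at an unadjusted p. Within slide 2 alone limma called 2 of 26 tested genes lower, Cdx2 and Epcam, against 1.44% of features, and within slide 1 alone 0 of 24 (0% of features, 16 genes at an unadjusted p under 0.05). These counts account for the genes and nothing is read from them, because the choice of the genes used these levels and the filter kept genes that are high in WT. The SD of the WT levels reached 3.79 log2 units for Fabp2, against 0.55 in EP2KO.

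The order of arrays was shared by most but not all of the genes. Taken one at a time against the profile of the other 29, 19 genes correlated at Pearson r of at least 0.9 over the 8 arrays, from 0.98 for Krt20 down to 0.69 for Mttp, 0.41 for Cdh17 and -0.76 for Reg1. These values describe 8 arrays that share slides and were partly below background. Within the WT arrays the order WT 4 above WT 2 held for 25 genes, WT 4 above WT 3 for 27 and WT 2 above WT 3 for 20. These counts include levels not well above background, which carry no order, such as WT 2 and WT 3 for Alpi and Slc15a1. The size of the gap differed from gene to gene. WT 1 exceeded WT 4 by a median of 2.11 log2 units over the 29 genes detected on both, from 0.43 for Apob (on its brighter probe, while the other probe read -2.34 and -4.79 on these arrays) to 4.35 for Fabp2. It exceeded WT 2 by a median of 3.35 over 23 genes, from 0.88 for Itln1 to 6.60 for Clca4a.

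**Figure D3:**
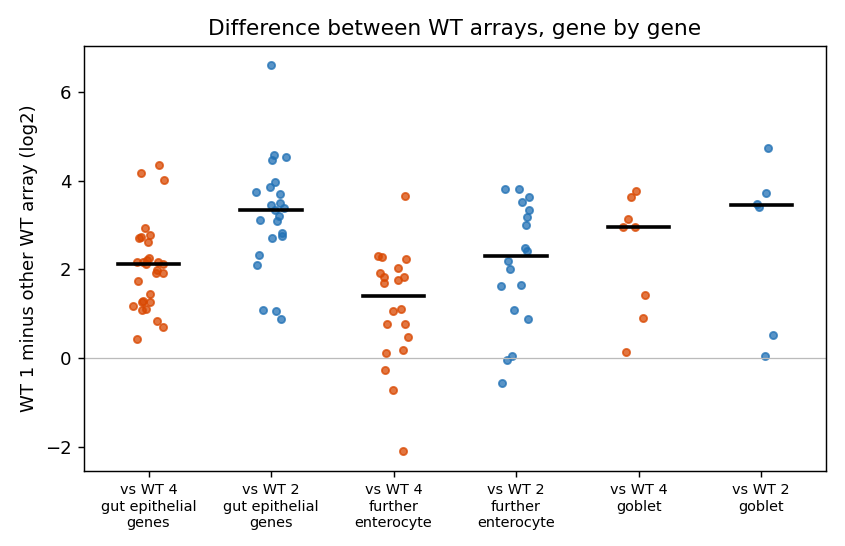
Difference in level between WT 1 and WT 4 or WT 2 for each gene well above background on both arrays (vertical axis, log2), for the gut epithelial, further enterocyte and goblet cell genes. Points are genes and bars are medians: 2.11 and 3.35 for the gut epithelial genes, 1.40 and 2.30 for the further enterocyte genes and 2.96 and 3.44 for the goblet cell genes.

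Further enterocyte genes that are not among the 30 showed the same order of arrays. Of 23 measured, 18 were highest on WT 1, and their median centred level was 3.03, -0.07, -0.22 and 0.97 on WT 1 to WT 4 and -1.09, -1.09, -0.42 and -0.70 on EP2KO 1 to EP2KO 4. Mep1b, a meprin subunit of the brush border, measured -0.53, -4.16, -9.13 and -2.75 on the WT arrays and was not well above background on WT 3 or on any EP2KO array. Anpep, a peptidase that macrophages also carry, went another way, between 2.82 (WT 2) and 4.42 (EP2KO 2) on slide 1 and up to 6.74 (EP2KO 3) on slide 2, with all arrays of slide 2 above all arrays of slide 1. Fabp6, the ileal bile acid binding protein, was at -3.23, -5.23 and -6.25 on WT 1 to WT 3 but not well above background on WT 4 (-9.62), which was otherwise second in this list.

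Goblet cell genes followed WT 1 as well, with 8 of 9 detected genes highest there and a median centred level of 2.56, -0.09, 0.02 and 0.91 on the WT arrays and -1.40, -1.52, -0.90 and -1.04 on the EP2KO arrays. Zg16, a lectin-like protein of the mucus, measured 0.42, -3.30, -7.38 and -3.21 against -7.08, -6.81, -6.45 and -7.89. Clca1, secreted with mucin, measured -1.67, -5.07, -7.69 and -5.43 on the WT arrays and was not well above background on WT 3 or on any EP2KO array. WT 4 exceeded WT 2 by a median of 0.23 over 6 goblet cell genes, against 1.19 over 23 of the gut epithelial genes and 1.15 over 17 further enterocyte genes. Whether these medians differ was not tested. Of the enteroendocrine and tuft cell genes, 6 of 10 were highest on WT 1, among them Sct (secretin), at -1.85 there and -4.57 on WT 4, and Chga (chromogranin A), at -4.34 and -6.14.

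In the remaining lists of gut cell types and epithelia a smaller share of the genes was highest on WT 1. Over all named genes above background on any array that share was 8.98% (13.6% of those that ranged over at least 2 log2 units). These lists are short, and whether their shares differ from it was not tested. Paneth cell genes had 1 of 4 highest on WT 1, which was Mmp7, the matrilysin that activates defensins (-4.84 on WT 1), and Defa26, a defensin, was detected on WT 3 alone (-6.62). Stem and progenitor genes had 2 of 7 highest on WT 1, where their median centred level was also highest (0.94, next 0.69 on EP2KO 2), and Lgr5 and Smoc2 were highest on WT 4 (-3.89 and -0.91). Colonocyte genes varied little, with 1 of 5 highest on WT 1 and a profile range of 0.80, and the widest in that list were the water channel Aqp8 (-5.88 on WT 1, -3.90 on EP2KO 4) and the carbonic anhydrase Car1 (-3.69 and -2.62). Genes shared by most epithelia had 4 of 16 highest on WT 1, where their median centred level was again highest (1.25, next 0.30 on EP2KO 1), and Cldn3 (-1.39) and Krt8 (-0.27) on that array lay close to EP2KO 2 (-1.35 and -0.57). Stomach and oesophagus genes had 1 of 6 highest on WT 1 and a profile range of 0.79, with Tff1 above background on EP2KO 2 only and Krt4 on WT 3 only. The part of other cell types in the levels of the 30 genes was not tested.

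**Figure D4:**
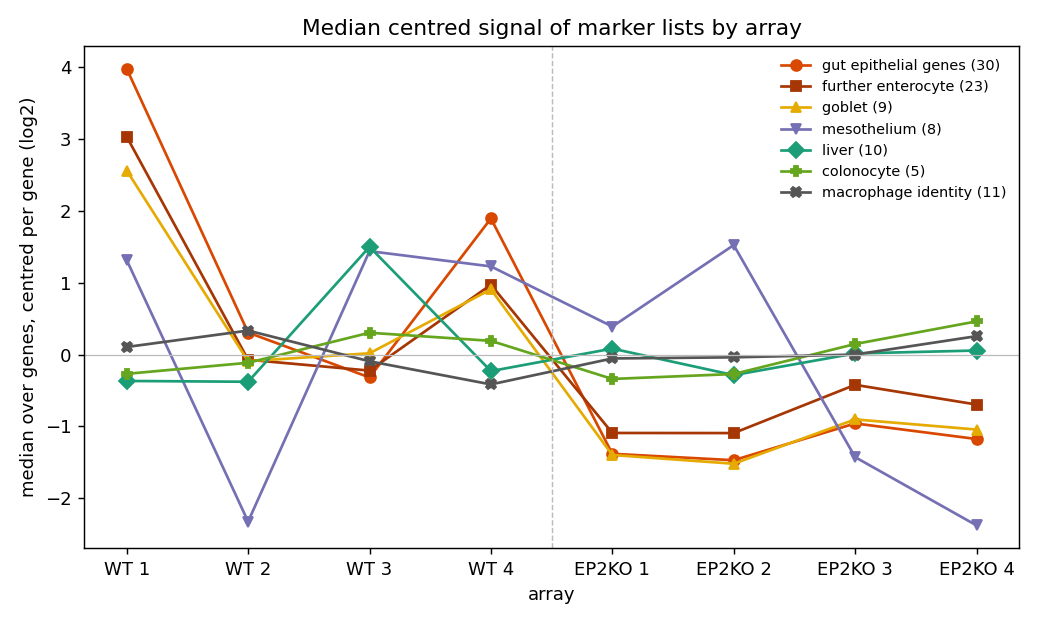
Median over each list's genes of the level centred per gene (vertical axis, log2) on each array, with the number of genes in brackets. The gut epithelial, further enterocyte and goblet cell lines peak on WT 1 (3.98, 3.03 and 2.56), the liver line on WT 3 (1.50), the mesothelium line drops on WT 2 and EP2KO 4 (-2.32 and -2.38), and the macrophage identity line stays between -0.42 and 0.33.

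Apoa1, Apob, Apoc3 and Fabp1 are also made by the liver. Of 11 liver genes, 4, 5, 10 and 6 were well above background on WT 1 to WT 4 and 8, 7, 5 and 6 on EP2KO 1 to EP2KO 4. Of the 10 above background on any array, 0 were highest on WT 1. Over all named genes above background on any array that share was 8.98%, so 0 of 10 genes is near it and nothing is read from this count. On WT 1, Apoa2, Tat, Trf and Serpina1a (-5.40) were well above background and albumin (Alb), Ttr, Ahsg, Fga, Fgb and Cyp2e1 were not. The part of liver RNA in the levels of the 30 genes was not tested. Serpina1a and Ahsg had the widest ranges of that list and were highest on WT 3 (-2.77 and -4.42), followed by EP2KO 1 (-4.19 and -4.94). Pancreas acinar and kidney tubule genes also had 0 highest on WT 1, of 9 and 6 genes, which is again near the share over all named genes.

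The genes outside the 30 whose levels were most like their profile included several with known roles in the small intestine. Among 6127 named genes with a range of at least 2 log2 units, 70 correlated with the profile at r of at least 0.9 over the 8 arrays and 43 at 0.95 or more. Those named among the 15 closest ran from Clca4b (r = 0.994) through Abcg5, Cyp2d26, Hnf4a, Ceacam18, Npc1l1, Dnase1, Degs2, Tmem45b, Rbp2, Slc7a9, Prap1 and 2010106E10Rik to Myo1a (r = 0.980). Abcg5, a sterol exporter, measured -2.88, -5.75, -6.80 and -4.40 on the WT arrays and was not detected on any EP2KO array. Hnf4a, a nuclear receptor of gut and liver, measured -2.06, -5.25, -5.92 and -4.10 and was likewise detected on all 4 WT arrays and no EP2KO array. Npc1l1, the intestinal cholesterol uptake protein, was detected on all 8 arrays at -2.87, -5.76, -6.07 and -4.67 against -6.72, -7.06, -6.32 and -6.30. Prap1, a proline-rich acidic protein, measured 0.45, -3.76, -5.27 and -1.12 against -5.36, -6.35, -5.55 and -5.57. In these 4 genes all WT levels lay above all EP2KO levels, closely so for Abcg5, Npc1l1 and Prap1 on WT 3, and WT 1 was highest. They were picked for likeness to a profile that is highest on WT 1 and low on the EP2KO arrays. Such a pattern therefore follows largely from the choice.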

How the data were processed

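Spot intensity, linear and background-corrected, was deposited per array. Per the file headers it came from Agilent Feature Extraction 10.7.1.1, while the submitters' processing notes name version 9.1. No scaling between arrays had been applied. The series table the authors deposited holds the same intensity values (largest log2 difference 0), with no log, centring or sign applied, and column medians from 52.6 to 96.9. Per the labels' protocols, Cy3-labelled cRNA was made from 0.5 µg of RNA.

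From these, log2 of the processed signal minus each array's 75th percentile over gene spots was computed. Per array, 1377 of 44397 spots were controls, which were dropped. Outlier-flagged spots counted as missing, and repeated spots of a probe were averaged. The first scaling tried took the percentile over probes; it was replaced to follow earlier processing of these data and is kept as an alternative. RefSeq transcripts on GRCm38.p6 named 27502 of 39429 probes and left 11927 unnamed. The array design is mm9, so no probe coordinates are given. Of the 30 genes, 27 had 1 probe, and otherwise the brightest probe was used.

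The comparison of EP2KO with WT used limma 3.58.1 under R 4.3.3 (lmFit, eBayes, Benjamini-Hochberg, two-sided, threshold 0.05) over 20740 features well above background on all arrays of 1 genotype. Where labels do not name separate mice, p-values measure only the spread between samples. Tested on simulated data of EP2KO against WT (3 sets of 20709 features, 200 changed in each), the fit found 20.7% of the changes of log2 size 1, 69.3% at size 2, 80.7% at 3 and 92% at 6. Blocked by slide it found 56.7%, 86.7%, 92% and 99.3%. Arrays of equal replicate number deviated together (r = 0.74, 0.12, 0.55 and 0.43 for numbers 1 to 4), and each such pair also shares a slide. The rule used, every r above 0.1, was met, but arrays of unequal number on the same slide were not compared. A pairing by number therefore cannot be told apart from the slide.

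The genes, lists and rule for named genes were chosen with earlier results of these data known. The rule names all 30 genes, Ptger2, the 15 other genes most like the profile (well above background on at least 1 array, range of at least 2), and from each other list the 2 genes with the widest range. A few genes that it takes are not reported here. Alternatives covered background correction, scaling, filter, choice of probe, blocks, single slides and each array left out. The normexp alternative was planned on mean spot signals and run on median spot signals, the column used here.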

Additional observations from a re-analysis of the deposited data

Results flagged for a closer look

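Among 94 groups of 4 arrays, 5 held an array whose gap to its nearest neighbour was above Dixon's critical share of the group's range. Chance alone would give 4.7 for independent groups that were not chosen on their levels. The gut epithelial genes were chosen on these levels and most share an order of arrays, so that number does not hold for them. Cdx1 on WT 1 (-4.36) lay above the other WT arrays (-6.71 to -6.47), and so did Epcam on WT 1 (-2.50, others -5.24 to -5.06). Because of that choice, the levels of Cdx1 and Epcam are given as a description and nothing is read from their flags. For the lists of other tissues, the profile of liver genes on WT 3 (1.50) lay above the other WT arrays (-0.38 to -0.23). The mesothelium profile on WT 2 (-2.32) lay below them (1.23 to 1.44), and the profile of intestinal smooth muscle and enteric nerve genes on WT 2 (-0.86) did too (0.21 to 0.43).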

How the results depend on the processing

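WT 1 kept the highest profile under quantile scaling, 75th percentile over probes, median scaling, either filter and the mean over probes. Under normexp as planned and under normexp fitted by maximum likelihood, WT 4 was highest (1.93 and 1.94, WT 1 1.72 and 1.73). Maximum likelihood and the replaced backgrounds were tried after seeing the data. The profile's range was 2.80 with normexp, 2.81 with maximum likelihood, 2.69 with replaced backgrounds, 4.04 with genes above background on all 8 arrays, and 3.56 to 5.53 leaving out 1 array. The median difference of the 20 kept genes, -2.90, was -1.52 with normexp, -1.52 with maximum likelihood and -1.13 with replaced backgrounds. In other settings the genes kept were not the same, and their medians are not the same genes compared. The median was -1.82 over the 7 genes above background on all 8 arrays, -4.19 over 24 genes within slide 1 and -1.62 over 26 within slide 2. Leaving out 1 array it was -4.19 to -1.80, over 20 to 24 genes. Called features numbered 4 with the slide block, 0 with the replicate block, 0 within slide 1, 344 within slide 2 (13 higher, 331 lower, 1.44% of 22924) and 0 to 4 leaving out 1 array. Within slide 2, 2 of the 26 genes tested were called lower, Cdx2 and Epcam, both kept only through their WT arrays; leaving out 1 array the count was 0 to 0, and the replicate block changed no call among the 30 genes. Genes with all WT above all EP2KO numbered 12 to 22 leaving out 1 array. Leaving out 1 array, the difference ran from -0.73 to 0.13 for Mttp and from -1.59 to 0.082 for Muc13, positive without WT 1 only. By the flag for positive and significant signal, 24, 25, 28 and 24 genes counted on EP2KO 1 to EP2KO 4. Over all alternatives, 407 values of single genes were computed, of which 373 moved by less than the spread between arrays and 34 by more. Causes were not tested. Levels not well above background carry no order, and the number of arrays limits every comparison.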

Other observations

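The lists of mesothelium, smooth muscle, kidney and pancreas genes had orders of their own. The median centred level of mesothelium genes, which mark the lining of the body cavity, was lowest on EP2KO 4 (-2.38) and WT 2 (-2.32). Upk1b measured -1.34, -6.27, -1.64 and -2.52 on WT 1 to WT 4 and -2.41, -1.22, -5.68 and -5.27 on EP2KO 1 to EP2KO 4, and Lrrn4 -1.06, -4.91, -0.57 and -0.71 against -2.02, -0.73, -4.32 and -5.43. Genes of smooth muscle, Actg2 and Cnn1, were highest on EP2KO 2 (-3.29 and -4.15) and lowest on EP2KO 4 (-8.53 and -9.26). The 3 measured genes of intestinal plasma cells and lymphocytes had their highest median centred level on WT 1 (2.15, next 0.89 on WT 2), and 1 of them was highest there. Of that list, Jchain, the joining chain of secreted antibodies, measured 1.71, 0.39, 1.89 and 1.79 on the WT arrays and -0.70, 0.21, -4.46 and -4.82 on the EP2KO arrays. Gzma, a granzyme of lymphocytes, was highest on WT 2 (2.88) and WT 1 (2.77). Among kidney genes, Lrp2 was highest on WT 4 (-1.25) and WT 3 (-1.50), and Slc34a1 on EP2KO 1 (-2.47). Among pancreas genes, Cela1 was highest on WT 3 (-1.79) and Prss2 on WT 2 (-5.91).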
